A study of Mus musculus with 5 samples.

Results

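The genes described here lie side by side on the distal part of mouse chromosome 4, in a window from 130 to 135 Mb (GRCm38) in which genes with altered RNA levels in Elmo2EID/EID myoblasts were seen close together. The window was picked for that contrast, so its fold changes and calls are given as a description and are not tested again. Membership required a protein-coding annotation (GENCODE M21), a start inside the window and a level of 5 normalized counts or more in some sample, and Wasf2 was left out. Of 97 protein-coding genes that start in the window, 84 met the rule, out of 14339 protein-coding genes and 18156 genes of all kinds that reached the same level. The 12 genes that did not reach it had values below that limit in all samples, and 2 of them, Kdf1 and Nr0b2, were at 0 throughout. The gene just below the limit, Gm7534, reached 3.37 normalized counts in its highest sample, and the members just above it, Gm853 and Matn1, reached 5.38. At the edges of the window, the last gene outside was Adgrb2 on one side, with 4.97 ± 2.77 normalized counts in WT and 5.82 ± 3.18 in EID, and Runx3 on the other.

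The RNA came from primary mouse myoblasts, muscle precursor cells selected with magnetic beads from leg muscle and kept in differentiation medium for 72 h, a time at which they fuse into myotubes. WT cells (n = 3) were compared with Elmo2EID/EID cells (n = 2, called EID below), which carry on both alleles a germline substitution of isoleucine by aspartate in the inhibitory domain of ELMO2, a scaffold of the DOCK activators of RAC, so that the protein favours its open form. The knock-in was made by homologous recombination and is present in the whole animal, all mice of the study were on a mixed C57BL6 and 129SV background, and the cells of both groups were taken from young adults of one stated age range. The labels do not say whether replicates of a group came from separate mice, so the spread between them may be partly technical. The study's methods say of primary cells in general that they usually came from independent animals, without tying these samples to mice.

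Genes that neighbour each other on a chromosome can be expressed independently, each from its own promoter, although they share stretches of open or closed chromatin and are inherited together as linked alleles. The members of this window have no single function. They include a heparan sulfate proteoglycan, splicing factors, kinases, chromatin proteins, mitochondrial enzymes and the muscle ubiquitin ligase Trim63. Differentiating myoblasts leave the cell cycle, switch on the contractile apparatus and rebuild their surface and cytoskeleton before fusing.

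The table held 54232 genes, and the recovered library totals ranged from 35021856 to 49381544 reads, at which 3 reads stand for 2.65 to 3.73 normalized counts. Elmo2 had 1642, 1539 and 1660 normalized counts in WT and 1441 and 1327 in EID, which does not check the labels because the allele changes a codon. All 10 skeletal muscle markers reached the level tested and none was called. Of 13 markers of macrophages and other leukocytes, 8 reached that level, 7 of them with a log2 fold change above 0, and none was called. Their summed level was 90.1, 108 and 97.0 in WT and 249.5 and 87.9 in EID, with Ptprc, Cd3e and Cx3cr1 under 5 normalized counts and Fcgr1 and Aif1 at 0. In bulk RNA, fewer cells of a type and less RNA per cell cannot be told apart. Values are normalized counts with the SD between samples, and fold changes compare EID with WT as differences of log2(normalized count + 1), a scale that shrinks the differences of weakly expressed genes. A gene is called where limma's moderated test, adjusted over all 18156 genes by the Benjamini-Hochberg method, fell under 0.05.

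Across the window, 8 of the 84 genes were called (9.52%), against 2.04% of protein-coding genes and 2.23% of all genes. Lower values in EID were called for 6 members (1.37% of protein-coding genes) and higher values for 2 (0.676%). The genes called lower were Sdc3, Wdtc1, Sfn, Hmgn2, Stmn1 and Mtfr1l, and those called higher were Rps6ka1 and Extl1. The other 76 genes were not called. The median log2 fold change of the 84 genes was 0.009, against 0.011 over all genes, with 39 genes below 0 and 45 above. Its genes did spread more widely, with quartiles at -0.25 and 0.20, where those of protein-coding genes stood at -0.14 and 0.12. The log2 fold changes of 43 members lay within 0.25 of 0, so the name of an altered gene cluster rests on a minority of the genes.

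The count of calls depended on the libraries and the test. Without WT replicate 1 it was 2, without WT replicate 2 it was 5 and without WT replicate 3 it was 6. It also fell without either EID replicate, in fits with 1 EID sample. The share of all genes called in these fits is not given, so a loss in the window cannot be told from a loss across the table. Hmgn2 was the only member called whichever sample was left out, and Stmn1 was lost only without EID replicate 2. The DESeq2 Wald test on recovered reads called 16 of the 81 members to which it gave an adjusted p (5.56% of all such genes), 11 lower and 5 higher, with all 8 among them. edgeR's quasi-likelihood test called the same 8 genes (2.25% of all genes). Of these 8 calls, limma without the trend kept 3, limma with no filter on low values 3, and limma with a block for the replicate number 2. The share of all genes called by those 3 fits is not given. The further genes called by DESeq2 included Sesn2, Zfp593, Pafah2 and Man1c1, with lower values in EID, and Pef1, Phactr4 and Slc30a2, with higher values.

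**Figure D1:**
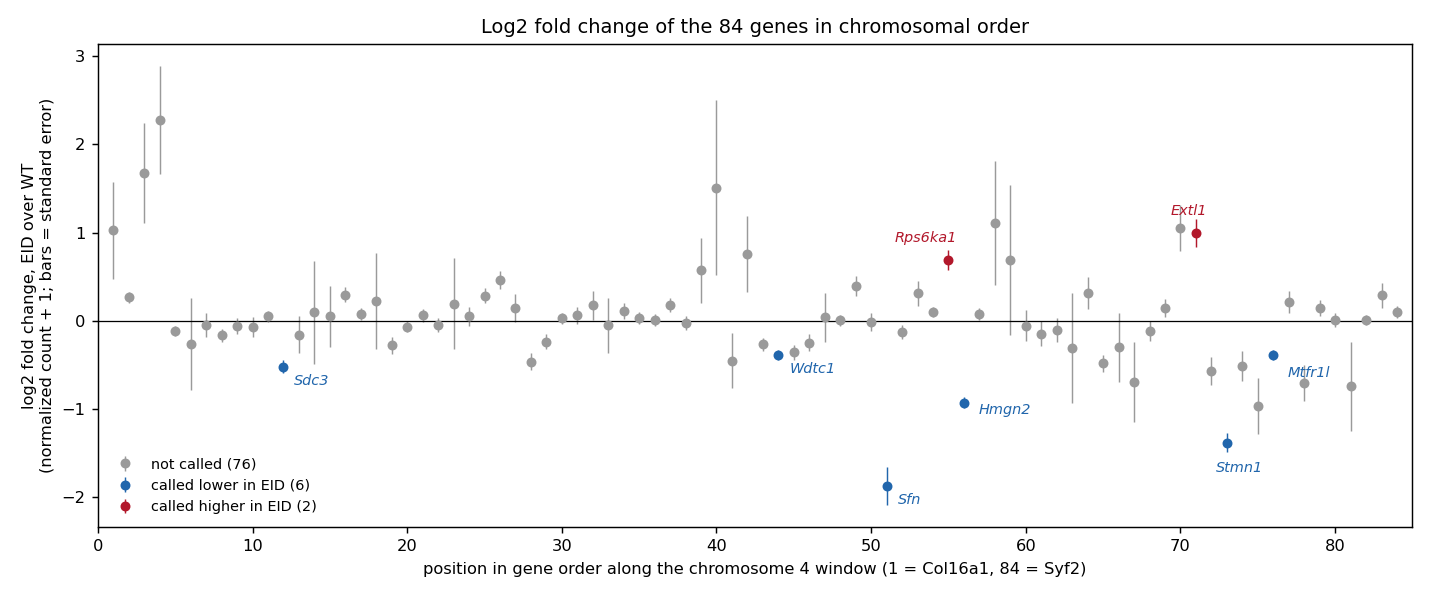
The horizontal axis gives the 84 genes in chromosomal order and the vertical axis the log2 fold change of EID over WT, with 1 standard error as the bar. The 6 genes called lower and 2 called higher stand among 76 genes that were not called and that lie on both sides of 0, and many of the longest bars belong to genes with low counts.

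Promoter sequences are shown for 3 of the genes called lower, as the stretch from 250 bases before to 50 bases after the annotated start (RefSeq, GRCm38.p6), since the promoter is where separate control of neighbouring genes can be looked for. Capitals mark the E-box CANNTG, the motif bound by MyoD and other helix-loop-helix factors. Stmn1 had no entry in the table of promoters.
Sfn (chr4:133602119-133602418, minus strand): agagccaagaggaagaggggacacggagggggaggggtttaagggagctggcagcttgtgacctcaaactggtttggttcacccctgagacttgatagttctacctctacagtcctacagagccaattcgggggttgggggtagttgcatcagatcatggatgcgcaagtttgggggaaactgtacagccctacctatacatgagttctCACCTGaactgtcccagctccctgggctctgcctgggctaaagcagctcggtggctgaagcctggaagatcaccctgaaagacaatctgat
Hmgn2 (chr4:133967942-133968241, minus strand): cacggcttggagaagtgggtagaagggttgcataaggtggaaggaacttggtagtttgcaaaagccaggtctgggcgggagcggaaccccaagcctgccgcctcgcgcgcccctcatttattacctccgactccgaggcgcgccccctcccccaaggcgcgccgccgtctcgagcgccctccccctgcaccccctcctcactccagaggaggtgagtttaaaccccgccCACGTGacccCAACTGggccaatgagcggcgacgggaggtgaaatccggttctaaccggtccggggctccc
Sdc3 (chr4:130792287-130792586, plus strand): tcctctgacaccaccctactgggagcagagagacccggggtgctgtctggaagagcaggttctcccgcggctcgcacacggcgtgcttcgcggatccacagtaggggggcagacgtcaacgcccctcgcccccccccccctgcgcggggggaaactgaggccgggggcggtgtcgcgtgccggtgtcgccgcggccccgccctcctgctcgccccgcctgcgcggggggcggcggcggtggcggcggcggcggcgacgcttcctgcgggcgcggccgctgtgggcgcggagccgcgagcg
The Sfn window held 1 E-box, that of Hmgn2 held 2 and that of Sdc3 held none. Sdc3 had 3 and Hmgn2 2 GC boxes (GGGCGG on either strand), and the Sfn window had none. The G and C content was 77.7% for Sdc3, 65.3% for Hmgn2 and 54% for Sfn, so the 3 stretches were unlike each other. Over the 74 members with a promoter entry, 52 had an E-box (70.3%, against 72.3% of 32851 promoters) and 19 had the form CAGCTG (25.7%, against 16.3%), which is also counted among the E-boxes. A TATAAA box on either strand was found in 6 members (8.11%, against 13.6%) and a GC box in 48 (64.9%, against 35.7%). The 32851 promoters outnumber the 18156 genes that reached the level tested. The members, chosen by level and kind, thus stand beside a wider set, and these differences are not a trait of the window. Of the 7 called genes with an entry, 3 had an E-box, 1 had CAGCTG, 3 had a GC box and none had TATAAA. These matches are letters in a window and are not shown to be bound.

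From the start of the window, the genes between 130 and 131 Mb numbered 14, and Sdc3 was the called one. Sdc3 (ENSMUSG00000025743, chromosome 4, 130792537 to 130826319, plus strand) encodes syndecan-3, a heparan sulfate proteoglycan of the surface of muscle progenitors and neurons. It had 2543, 2319.7 and 2539.6 in WT and 1689 and 1749.9 in EID. Both EID samples lay below all WT samples, and the ratio of the means was 0.697 (2467 ± 128 and 1719.7 ± 42.8, SD, n = 3 and n = 2). The log2 fold change was -0.52 (SE 0.07), between -0.56 and -0.49 with any 1 sample left out, and the call was lost without WT replicate 1, without EID replicate 1 and without EID replicate 2.

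The first members of the window include matrix genes whose levels varied widely among the WT samples. Col16a1, a chain of the minor fibril-associated collagen XVI, had 519.5, 123 and 362 in WT and 494 and 685 in EID. Tinagl1, a secreted basement membrane protein, had 585, 165 and 638 in WT and 1027 and 1556 in EID, a log2 fold change of 1.68 (SE 0.57) that was not called. WT replicate 2 was the low sample for both genes, and the groups overlapped for Col16a1 but not for Tinagl1. The summed level of 12 endothelial markers was 1214, 393 and 1309 in WT and 2975 and 4465 in EID, with the same order of samples as Tinagl1 and another order than Col16a1. Markers of fibro-adipogenic progenitors, of which 7 of 9 were tested, summed to 38281, 22232 and 26328 in WT, in the WT order of Col16a1, and to 22252 and 27282 in EID. Of the 12 endothelial markers 11 had a log2 fold change above 0, none was called, and the part of either marker list in the values of both genes was not tested.

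Pef1, a calcium-binding adaptor of vesicle coats, had 1583 ± 46.1 in WT and 1903 ± 10.7 in EID, with both EID samples above WT. Gm853, a gene with no described role here, was at 0 in all WT samples and had 2.68 and 5.38 in EID, a few reads in each library. Serinc2, a multipass membrane protein of the serine incorporator family, was second in level per kilobase of exon in the window and had 7395 ± 36.0 in WT and 6813 ± 48.9 in EID, a small difference (log2 fold change -0.12, SE 0.05) without overlap. The fatty acid-binding protein of heart and skeletal muscle, Fabp3, was the most abundant per kilobase (11757 normalized counts per kb in WT). It had 8415, 8926 and 11687 in WT and 9505 and 9057 in EID, and WT replicate 3 stood above the EID samples, which lay within the WT range. Gm10570, which overlaps Fabp3 on the opposite strand, had 7.91 ± 1.77 in WT and 7.16 ± 5.05 in EID.

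The RNA-binding proteins of this stretch kept close levels. Zcchc17, a zinc knuckle protein, had 1632 ± 75.1 in WT and 1455 ± 64.0 in EID. Snrnp40, a component of the U5 particle of the spliceosome, had 934 ± 67.2 in WT and 895 ± 21.9 in EID. The groups did not overlap for Zcchc17 and overlapped for Snrnp40, and Zcchc17 had a log2 fold change of -0.17 (SE 0.07). Nkain1, which interacts with the sodium pump, had 291 ± 19.8 in WT and 276 ± 5.23 in EID. The lysosomal protein of blood cells Laptm5 had 96.7 ± 19.3 in WT and 85.5 ± 5.84 in EID, and the cartilage matrix gene Matn1 was near the limit of detection with 3.05 ± 1.19 in WT and 3.58 ± 2.54 in EID.

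**Figure D2:**
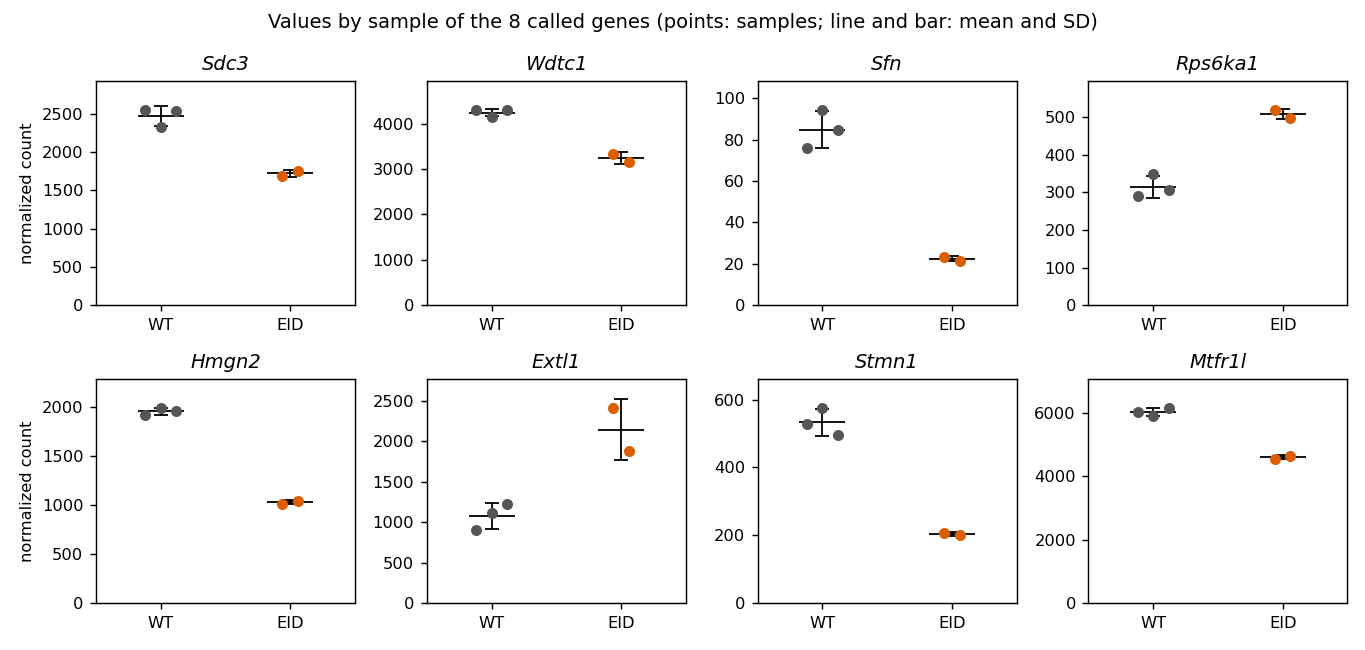
Each panel plots the normalized counts of 1 called gene, with a point for each sample, a horizontal line at the group mean and a bar of 1 SD, and all vertical axes start at 0. The EID samples lie apart from the WT samples in all 8 panels, with the widest EID spread in Extl1.

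Between 131 and 132 Mb lay 5 members and no called gene. Mecr, the reductase of mitochondrial fatty acid synthesis, had 587 ± 29.7 in WT and 721 ± 32.2 in EID, with both EID samples above WT. Epb41, a membrane skeleton protein that links spectrin to actin, had 901 ± 84.6 in WT and 741 ± 1.91 in EID, with both EID samples below. Their log2 fold changes were 0.30 and -0.28. The splicing factor Srsf4 had 1662 ± 74.3 in WT and 1748 ± 31.5 in EID. Ptpru, a receptor tyrosine phosphatase, and Tmem200b, a membrane protein, were low: Ptpru had 13.0 ± 2.09 in WT and 13.4 ± 2.56 in EID, and Tmem200b had 12.2 ± 8.04 in WT and 12.5 ± 0.0213 in EID.

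The 18 members between 132 and 133 Mb also held no called gene, and their log2 fold changes ran from -0.47 to 0.46. The genes at both ends of that range were called by DESeq2. Sesn2, a stress-induced sestrin that restrains growth signalling, had 894, 763 and 859 in WT and 621 and 591 in EID. Phactr4, a regulator of protein phosphatase and actin, had 2383, 2223 and 2773 in WT and 3307 and 3439.8 in EID. Neither gene had overlapping groups, and the difference in Phactr4 (log2 fold change 0.46, SE 0.10) was larger than the difference between its WT samples.

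Nuclear genes of this stretch were mostly near WT levels. Rcc1, the exchange factor for the GTPase Ran on chromatin, had 644 ± 28.3 in WT and 784 ± 41.9 in EID, with both EID samples above WT, and it shares 135 bases of exon with Snhg3 on its own strand. Ythdf2, a reader of methylated adenosine in messenger RNA, had 2859.5 ± 103 in WT and 2728 ± 35.3 in EID, and the groups stood apart by a log2 fold change of -0.067 (SE 0.06). The transcription factors Gmeb1 and Taf12, the second a subunit of TFIID, had log2 fold changes of 0.061 and -0.047 at WT means of 1425 ± 61.7 and 1371 ± 80.3. Med18, a subunit of Mediator, had 138 ± 11.8 in WT and 153 ± 18.1 in EID. Eya3, a phosphatase and coactivator that works with homeodomain proteins in muscle precursors, had 3890.0 ± 359.9 in WT and 4059.9 ± 320.4 in EID. Rpa2, a subunit of the single-strand DNA-binding protein of replication, had 606, 624 and 582 in WT and 621 and 685 in EID.

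Trafficking and RNA genes lay beside them. Ppp1r8, a nuclear inhibitor of protein phosphatase, had 1321 ± 50.1 in WT and 1346 ± 6.09 in EID. Stx12, a syntaxin of endosomes, had 3138 ± 79.8 in WT and 3161 ± 163 in EID. Dnajc8, a co-chaperone bound to the spliceosome, had 3914 ± 21.4 in WT and 3994 ± 239 in EID. These 3 genes differed by less than the spread between samples. Trnau1ap, which works with the selenocysteine transfer RNA, had 415 ± 35.8 in WT and 429 ± 3.26 in EID. Xkr8, a scramblase that exposes phosphatidylserine, the lipid signal upstream of ELMO and DOCK in engulfment and fusion, had 421, 562 and 449 in WT and 600.1 and 476 in EID. Its groups overlapped, with a log2 fold change of 0.17 (SE 0.16).

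Atpif1, the inhibitor of the mitochondrial ATP synthase, had 2213 ± 168 in WT and 1873 ± 86.1 in EID, with both EID samples below WT. Fam76a had 1241 ± 14.3 in WT and 1407 ± 142 in EID, with both above. Smpdl3b, a membrane-anchored phosphodiesterase, had 216, 223 and 109 in WT and 166 and 169 in EID. WT replicate 3 was the low sample of Smpdl3b, and the EID values lay between it and the other two. The small GTPase Rab42 was close to the detection limit with 3.58 ± 1.76 in WT and 4.03 ± 0.626 in EID.

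Between 133 and 134 Mb, 20 members included 4 called genes, Wdtc1, Sfn, Rps6ka1 and Hmgn2. Wdtc1 (ENSMUSG00000037622, chromosome 4, 133292459 to 133353481, minus strand) encodes a repeat protein that serves as a substrate receptor of a ubiquitin ligase and restrains fat storage. It had 4291, 4147 and 4287 in WT and 3337 and 3152 in EID, means of 4242 ± 82.3 and 3244 ± 131 (SD, n = 3 and n = 2) and a ratio of 0.765. The EID samples lay below all WT samples, but the call of this difference (log2 fold change -0.39, SE 0.06) was lost whichever sample was left out.

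Sfn (ENSMUSG00000047281, chromosome 4, 133600556 to 133602168, minus strand) encodes stratifin, the sigma member of a family of phosphoserine-binding adaptors, known for its role in epithelial cells and in cell cycle arrest after DNA damage. It had 76.0, 94.2 and 84.5 in WT and 23.3 and 21.5 in EID. This was the lowest log2 fold change among the 84 genes (log2 fold change -1.87, SE 0.21), in a gene of low level, with means of 84.9 ± 9.13 in WT and 22.4 ± 1.23 in EID (SD, n = 3 and n = 2). The EID level was 0.264 of the WT level. The call was lost without WT replicate 1, without EID replicate 1 and without EID replicate 2, while the fold change stayed between -1.95 and -1.80.

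Rps6ka1 (ENSMUSG00000003644, chromosome 4, 133847290 to 133887797, minus strand) encodes a ribosomal S6 kinase that acts downstream of ERK. It rose, with 291, 348 and 306 in WT and 518 and 498 in EID, a ratio of the means of 1.61 (315 ± 29.6 and 508 ± 13.7, SD, n = 3 and n = 2). All EID values exceeded all WT values, with a log2 fold change of 0.69 (SE 0.11). Of the 5 fits that left out a sample, the one without WT replicate 2 called it.

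The next gene along the chromosome, 117.4 kb from the start of Rps6ka1 with no member between, moved the opposite way. Hmgn2 (ENSMUSG00000003038, chromosome 4, 133964738 to 133968650, minus strand) encodes a nucleosome-binding protein that loosens chromatin and is high in proliferating precursors. It had 1923, 1991 and 1955 in WT and 1012 and 1042 in EID. The ratio of the means was 0.525 (1957 ± 33.8 and 1027 ± 20.7, SD, n = 3 and n = 2), and both groups were tight, with EID lower by far more than the spread within either. The log2 fold change of -0.93 (SE 0.06) stayed between -0.95 and -0.91 with a sample left out. Dhdds, the neighbour on the other side and an enzyme of dolichol synthesis, had 2389 ± 55.0 in WT and 2521 ± 106 in EID, and its groups overlapped.

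The other members of this stretch were mostly steady. Ahdc1, an AT-hook DNA-binding protein, had 4918 ± 334 in WT and 4830.0 ± 347 in EID. Arid1a, the large subunit of SWI/SNF remodelling complexes, had 5424 ± 183 in WT and 5804 ± 54.2 in EID, with EID above WT by 0.10 (SE 0.06) on the log2 scale. Nudc, a dynein-associated protein of nuclear movement, had 2979 ± 71.0 in WT and 2986 ± 22.8 in EID, a difference smaller than either SD. The GTPase Gpn2, which takes part in the assembly of RNA polymerase, had 412 ± 29.9 in WT and 407 ± 10.7 in EID. The nuclear protein Trnp1 had 231, 118 and 194 in WT and 177 and 181 in EID, with WT replicate 2 low.

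Genes that lay apart without a call came in both directions. Tent5b, of a family of poly(A) polymerases, had 1629 ± 168 in WT and 1365 ± 15.6 in EID. Tmem222 had 855 ± 14.0 in WT and 710.0 ± 41.8 in EID, and Zdhhc18, a palmitoyltransferase, had 1300.2 ± 73.1 in WT and 1190.0 ± 49.9 in EID. These 3 genes all had EID below WT. Gpatch3, a G-patch protein, had 201 ± 6.85 in WT and 265 ± 6.52 in EID, and Pigv, a mannosyltransferase of membrane anchors, had 303 ± 40.9 in WT and 373 ± 3.17 in EID, both with EID above WT. The kinase Map3k6 had 252, 141 and 179 in WT and 104 and 177 in EID, which overlapped.

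Low genes of the stretch gave values of few reads. Gpr3, an orphan receptor that raises cyclic AMP, had 15.9, 8.97 and 13.7 in WT and 17.0 and 21.5 in EID, a log2 fold change of 0.57 (SE 0.37). Sytl1, an effector of Rab GTPases in secretion, had 6.18, 14.6 and 12.4 in WT and 18.8 and 17.9 in EID (log2 fold change 0.76, SE 0.43). The groups of these genes did not overlap and neither was called. Cd164l2, which overlaps Gpr3 on the opposite strand, had 9.72, 2.24 and 0 in WT and 5.37 and 12.6 in EID, spread over both groups.

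**Figure D3:**
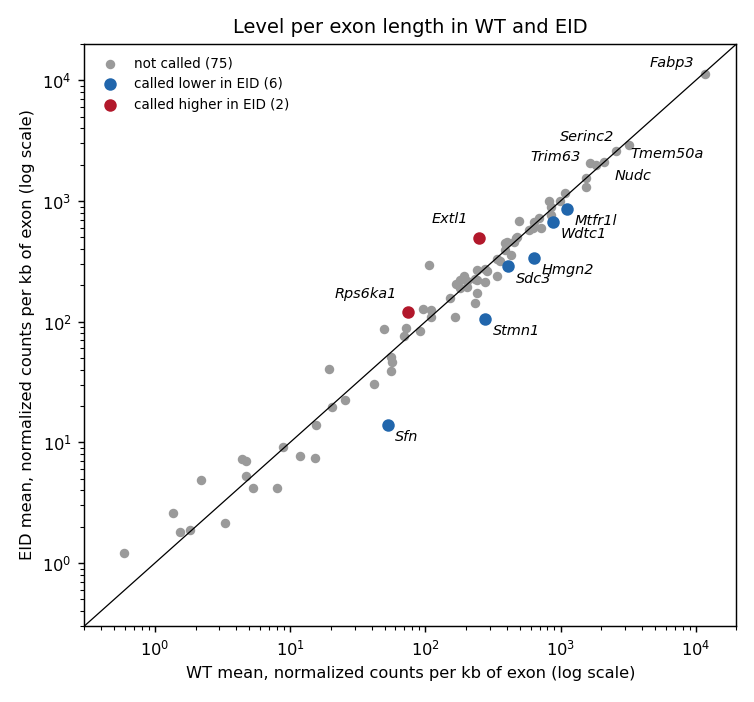
The mean level in WT is on the horizontal axis and that in EID on the vertical axis, in normalized counts per kb of exon on log scales, with the line of equal levels, for the 83 members above 0 in both groups (Gm853 is left out). The called genes lie between Sfn and Mtfr1l in level, and the most abundant members, Fabp3, Serinc2, Tmem50a, Nudc and Trim63, lie near the line.

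The last stretch, from 134 to 135 Mb, held 27 members and 3 called genes, Extl1, Stmn1 and Mtfr1l. Extl1 (ENSMUSG00000028838, chromosome 4, 134356372 to 134383850, minus strand) encodes an exostosin-like glycosyltransferase of heparan sulfate synthesis, the modification that Sdc3 carries. It had 899, 1108 and 1219 in WT and 2412 and 1874 in EID, a ratio of the means of 1.99 (1075 ± 163 and 2143 ± 381, SD, n = 3 and n = 2). EID replicate 2 stood nearer to WT than EID replicate 1, and the log2 fold change was 0.99 (SE 0.16). The call held without WT replicate 3 and was lost in the other 4 fits.

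Stmn1 (ENSMUSG00000028832, chromosome 4, 134468320 to 134473843, plus strand) encodes stathmin, which binds tubulin and takes microtubules apart and which is high in dividing cells. It had 527, 575 and 496 in WT and 207 and 199 in EID. The means were 533 ± 40.0 and 203 ± 5.99 (SD, n = 3 and n = 2), a ratio of 0.381 and a log2 fold change of -1.38 (SE 0.11), and the EID samples agreed closely. The summed level of 10 markers of cycling cells was 4366, 4258 and 3054 in WT and 2902 and 3105 in EID. All 10 had log2 fold changes below 0, with a median of -0.37, and none was called. In WT replicate 3 this sum lay inside the EID range. The part of cycling cells in the values of Stmn1 and Hmgn2 was not tested.

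Mtfr1l (ENSMUSG00000046671, chromosome 4, 134525550 to 134535387, minus strand) is related to a regulator of mitochondrial fission. It was abundant, with 6017, 5893 and 6152 in WT and 4551 and 4651 in EID, means of 6021 ± 129 and 4601 ± 70.5 (SD, n = 3 and n = 2) and a ratio of 0.764. All EID values were below all WT values, and as for Wdtc1 the call of the difference (log2 fold change -0.39, SE 0.06) was lost in each of the 5 fits without a sample.

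Between and around these genes lay several with separate groups and no call. Slc30a2, a zinc transporter next to Extl1, had 68.9, 87.5 and 52.2 in WT and 165 and 122 in EID (log2 fold change 1.05, SE 0.26). Pafah2, a phospholipase that acts on platelet-activating factor, had 572, 501 and 712 in WT and 420.3 and 372 in EID (log2 fold change -0.57, SE 0.16). Paqr7, a membrane progestin receptor, had 243, 237 and 226 in WT and 196 and 139 in EID (log2 fold change -0.51, SE 0.17). Slc30a2 thus stood above WT like Extl1, and Pafah2 and Paqr7 below it on both sides of Stmn1. Aunip, which binds the mitotic kinase Aurora A, had 16.8, 19.1 and 22.4 in WT and 9.84 and 8.96 in EID (log2 fold change -0.96, SE 0.32) and was low. Man1c1, a mannosidase of the Golgi, had 1399, 1534 and 1052 in WT and 958 and 676 in EID (log2 fold change -0.70, SE 0.20). Zfp593, a zinc finger protein of ribosome assembly, had 702, 748 and 656 in WT and 513 and 489 in EID (log2 fold change -0.48, SE 0.09), and it overlaps E130218I03Rik, at 11.2 ± 2.39 in WT and 8.95 ± 2.52 in EID, on the opposite strand.

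Among the genes of the stretch listed for muscle, Stmn1 and Mtfr1l were called, and Trim63 and Selenon were not. Trim63, the ubiquitin ligase that breaks down contractile proteins in atrophy, had 5134, 5759.9 and 4591 in WT and 5959.8 and 5395 in EID, a log2 fold change of 0.14 (SE 0.10). Selenon, a selenoprotein of the endoplasmic reticulum whose loss causes a congenital myopathy in people, had 1579.8, 1189 and 1418 in WT and 1509.6 and 1709 in EID (log2 fold change 0.21, SE 0.13). The groups overlapped for both genes.

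Several other genes near the end of the window had overlapping groups. Tmem50a, among the most abundant members per kilobase, had 3267 ± 73.0 in WT and 3288 ± 75.9 in EID. Maco1 had 2638 ± 211 in WT and 2642 ± 10.7 in EID. The groups differed by less than the SD of the WT samples for both genes. Cep85, a centrosome protein, had 1504 ± 232 in WT and 1390.5 ± 133 in EID. Sh3bgrl3, a small thioredoxin-like protein, had 697 ± 109 in WT and 625 ± 46.0 in EID. Cnksr1, a scaffold of Ras signalling, had 502 ± 104 in WT and 617 ± 62.9 in EID, and the kinase Pdik1l had 321 ± 27.2 in WT and 296 ± 2.66 in EID. None of these stood apart in all samples.

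At the far edge, the arginine- and serine-rich protein Rsrp1 had 5527, 5918 and 5218 in WT and 5699.6 and 8071 in EID, where EID replicate 2 alone stood above WT. Syf2, a spliceosome protein and the last member, had 2205 ± 114 in WT and 2363 ± 42.6 in EID. The UBX-domain gene Ubxn11 had 96.5 ± 5.89 in WT and 93.1 ± 11.6 in EID. The remaining members were at low levels with overlapping groups. Lin28a, a regulator of let-7 microRNAs, had 5.44 ± 4.75 in WT and 10.3 ± 0.616 in EID, and Crybg2 had 4.64 ± 3.03 in WT and 9.41 ± 9.51 in EID. Catsper4, a calcium channel of sperm, had 6.91 ± 5.68 in WT and 4.48 ± 0.00761 in EID. The values of Grrp1 were 15.1 ± 2.12 in WT and 9.84 ± 6.31 in EID, and those of the Rh blood group gene Rhd were 12.7 ± 6.54 in WT and 6.72 ± 1.91 in EID. None of the 16 members with a WT mean under 50 was called.

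The called genes were not evenly placed. They spanned 3.73 Mb of starts, and Sdc3 and Wdtc1 were 2499.9 kb apart with 31 members between them. From Sfn on, 6 of the 8 called genes started within 0.92 Mb, a stretch of 26 members. Within it 14 members separated Hmgn2 from Extl1, 1 separated Extl1 from Stmn1 and 2 separated Stmn1 from Mtfr1l. The directions were mixed, each gene called higher standing between genes called lower, and members that were not called lay between all called neighbours except Rps6ka1 and Hmgn2. Of the 8 called genes 6 were on the minus strand, as were 50 of the 84 members.

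Grouped by role, with lists that overlap and were written with earlier results known, the calls fell in 8 of 9 lists, and the counts stand beside 2.04% of protein-coding genes called, 1.37% lower and 0.676% higher. Among 13 cytoskeleton, adhesion and matrix genes 2 were called lower (Sdc3 and Stmn1), and among 6 genes of DNA replication, repair and the cell cycle 2 were called lower (Sfn and Stmn1). The 9 chromatin and transcription genes had 1 called lower, Hmgn2, and the 7 genes of mitochondria and metabolism had 1, Mtfr1l. Calls in the higher direction were Rps6ka1, counted in both the 10 signalling genes and the 11 genes of RNA binding, splicing and translation, and Extl1 among 16 genes of membrane transport and trafficking. The 10 genes listed for muscle were Col16a1, Tinagl1, Fabp3, Sesn2, Smpdl3b, Trnp1, Trim63, Stmn1, Mtfr1l and Selenon, several of them described above by other roles. Of these, 2 were called lower, Stmn1 and Mtfr1l, and 8 were not called, with a median of -0.002. The 4 blood cell and innate immune genes had no call, and of 15 genes in no list Wdtc1 was called. The medians of the 10 groups lay between -0.10 and 0.06, beside 0.011 for all genes.

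Separation without a call was common in the window and elsewhere. The groups did not overlap for 36 members (42.9%), against 34.0% of protein-coding genes and 32.6% of all genes. EID lay below WT for 21 of them (17.1% of protein-coding genes) and above for 15 (17.0%), and 28 of the 36 were not called. By stretch, 7 members lay below and 6 above between 133 and 134 Mb, and 7 below and 2 above between 134 and 135 Mb. Among members with a WT mean of at least 50, the median coefficient of variation of the WT samples was 7.0%, next to 6.8% over all such protein-coding genes.

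The stretches on either side of the window, taken by the same rule, give its surroundings. The 5 Mb before it held 67 genes, of which 2 were called, both lower (2.99%). Grik3, a kainate receptor subunit, had a log2 fold change of -2.74, and Hdac1, a histone deacetylase, fell from 1003 ± 55.4 to 595 ± 7.85 normalized counts. The 5 Mb after it held 64 genes, of which 4 were called, all lower (6.25%), among them Myom3, the zinc finger gene Zfp46 and Pax7. Pax7, the transcription factor of muscle stem cells, fell from 900.4 ± 56.2 to 356 ± 82.3, and Myom3, a protein of the contractile M-band, had a log2 fold change of -0.71. The count of called genes in both stretches together was 6 in all samples. It was 1 without WT replicate 1, 3 without WT replicate 2 and 4 without WT replicate 3, and it also fell without either EID replicate. The share of all genes called in those fits is not given. On the whole chromosome 36 of 914 protein-coding genes were called (3.94%). Separated groups were also found outside the window, 29 genes before it (43.3%) and 26 after it (40.6%). Runx3, just outside the far edge, had 7.07, 23.6 and 6.22 in WT and 50.1 and 31.4 in EID, without overlap and without a call, and Wasf2, left out of the window, had 4394 ± 528 and 3978 ± 62.9. The difference between window and flanks was not tested.

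**Figure D4:**
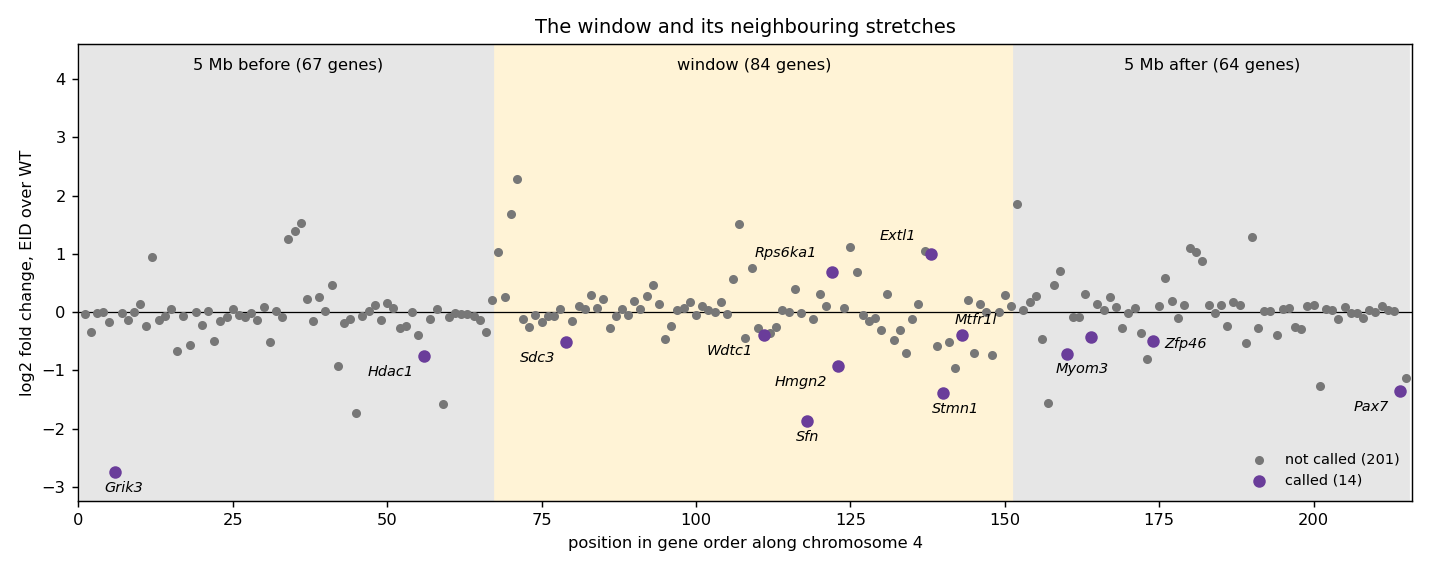
Genes are in chromosomal order on the horizontal axis, with the log2 fold change of EID over WT on the vertical axis, for the window (84 genes) and for the 5 Mb before (67 genes) and after it (64 genes). The 14 called genes are large points, most of them with names, 8 in the window, 2 before it and 4 after it, and all 6 outside it are lower in EID.

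Near-identical copies elsewhere in the genome can take or give reads, and 4 members had such copies among the 1231 pseudogenes that reached 5 normalized counts. Hmgn2 had 3 processed copies, of which Gm6594 on chromosome 17 (92.3% identity) had 0 in all WT samples and 18.8 and 17.0 in EID, and Gm14008 on chromosome 2 (93.8%) had 0 in all WT samples and 10.7 and 8.96 in EID. Gm10357 on chromosome 13 (99.6%) went the other way, with 4.42, 5.61 and 4.97 in WT and 0.894 and 0 in EID. All these values hold unique alignments only, so reads that fit a gene and its copy equally well are missing from both. Nudc-ps1 on chromosome 8 (99.1%) had 13.2, 5.61 and 6.22 in WT and 293 and 308 in EID and was called, while Nudc itself was level. The copy of Stmn1, Gm11223 (99.8%), had a log2 fold change of -0.40, and that of Fabp3, Fabp3-ps1 (99.3%), had -0.11, and neither was called. Thus 3 of the 6 copies were called, all higher in EID, beside 6.99% of the 1231 pseudogenes called and 6.90% called higher. How reads were divided between the genes and their copies was not tested. On their own strands, Stmn1 also shares 66 bases of exon with Gm23634.

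**Figure D5:**
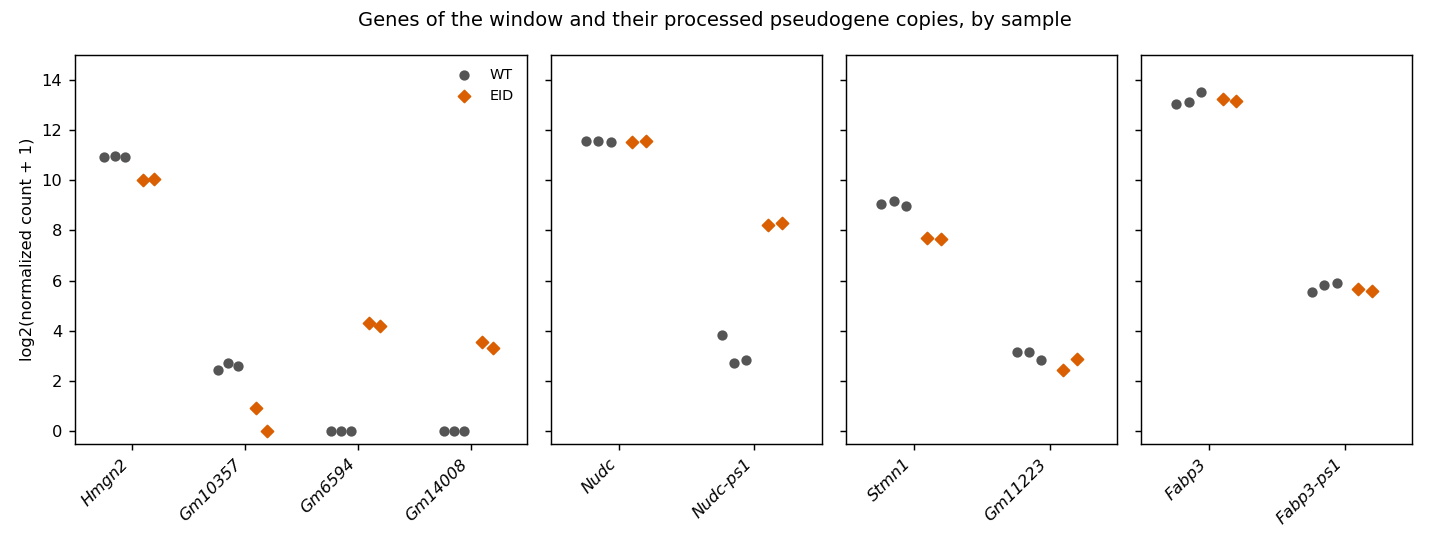
Panels show 4 members and their processed copies on the horizontal axis and log2(normalized count + 1) on the vertical axis, with a point per sample, circles for WT and diamonds for EID. Gm6594, Gm14008 and Nudc-ps1 are high in EID only or mainly, Hmgn2 and Stmn1 are lower in EID, and Nudc and Fabp3 are level.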

How the data were processed

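RNA sequencing of 3 WT and 2 Elmo2EID/EID myoblast samples was used. Per the labels and the study's methods, the authors enriched poly-A RNA, made stranded libraries, aligned read pairs to GRCm38 with STAR 2.5.1b, assigned unique alignments to genes with featureCounts 1.4.6 (reverse-stranded) and deposited 1 signal per gene and sample, the count divided by its DESeq2 1.34.0 size factor. Column names matched the sample labels. Dividing by the smallest positive value gave whole reads within 0.01 for 100% of values, with totals of 35021856 to 49381544 reads. Replicate pairs differed by more than sampling noise (chi-square per degree of freedom 26.6 to 37.8). A precision limit of 3 reads was used for values of 0, which covers counting error only.

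Log2(normalized count + 1) was fitted for 18156 genes with limma 3.58.1 in R 4.3.3 (trend, eBayes, two-sided, Benjamini-Hochberg over all of them, threshold 0.05), the fit being tested on simulated data. Alternatives were edgeR 4.0.16 and DESeq2 1.42.0 on the recovered reads, other pseudocounts (0.5 and 5), filters and scalings, a block for the replicate number, and omission of each sample. Exon lengths, biotypes and positions came from GENCODE M21 on GRCm38, which matched 54165 of 54232 identifiers (the study's methods name another, Ensembl, release for the counting, so levels per kb and exon overlaps assume that its exons are alike), promoters from RefSeq (74 of 84 members) and copies from blastn 2.17.0 (at least 90% identity over at least 50% of the pseudogene). Members are given along the position, except a few genes that are not reported here, and more fully those called, those without overlap and with an absolute log2 fold change of at least 0.5, the 5 most abundant per kb, muscle genes and edge genes. Members and lists were chosen with earlier results of these data known, and some lists were trimmed after the values were seen, so no list is tested.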

Additional observations from a re-analysis of the deposited data

How the results depend on the processing

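Against 8 members called, 6 of them lower, DESeq2 called 16 and 11, limma without the trend 3 and 3, no filter on low values 3 and 3, and the replicate block 2 and 2. Leaving out 1 WT sample gave 2 to 6 called and 2 to 4 called lower, and both counts also fell without either EID sample. Except for DESeq2, the share of all genes called under these settings is not given. With EID left with 1 sample, that sample is assumed to vary like the WT samples. In the stretches on either side, of 67 and 64 genes, 6 were called in the main fit and 12 by DESeq2. Over all genes the main fit called 2.23%, and DESeq2 called 5.56% of those to which it gave an adjusted p. Without the trend limma called 2 genes of these stretches and with no filter 3, and leaving out a WT sample gave 1 to 4. Members without overlap numbered 36, and 43 to 58 with a sample left out, as fewer samples overlap less. The median log2 fold change of 0.009 was -0.012 after quantile normalization and ranged from 0.0 to 0.019 with a sample left out. All 8 calls held under edgeR, DESeq2, equal totals, quantile normalization, a mean of at least 10 and both other pseudocounts. Hmgn2 and Stmn1 were the calls kept under the replicate block. Same-numbered samples did not deviate together: across 12298 genes, which are not independent replicates, the difference between replicates 1 and 2 in WT correlated at -0.27 with that in EID, so the numbers were not taken as pairs. Of 254 values of the 17 named genes under alternatives, 210 kept their direction and side of the threshold, 41 fell short of it, 3 passed it and 0 changed direction. The causes were not tested. Counts near 3 reads limit what can be said of genes such as Gm853, Matn1 and Rab42.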

Other observations

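Beside the protein-coding genes, 13 rows of other kinds in the window reached 5 normalized counts, and 1 of them was called (2.23% of all genes were), with 5 showing no overlap between the groups (32.6% of all genes showed none). The called row, 1700021N21Rik, is annotated as antisense and lies on the minus strand at 134448766 to 134450171, between Pafah2 and Stmn1. It had 15.0, 13.5 and 14.9 normalized counts in WT and 0 in both EID samples, at least 5.38-fold lower when the EID value is set to the limit of 3 reads per library. The snoRNA host genes Snhg12 and Snhg3 had 209 ± 17.1 and 221 ± 11.4 in WT (SD, n = 3) and 171 ± 15.5 and 189.8 ± 9.19 in EID (SD, n = 2), with both EID samples below WT and no call.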
